A study of Mus musculus with 6 samples.

Results

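The 10 genes described here encode sensors of double-stranded RNA and the oligoadenylate synthetases and related proteins that act beside them. They are Oas1a, Oas2, Oas3, Oasl1, Oasl2, Ifih1, Ddx58, Dhx58, Eif2ak2 and Adar. They were chosen by gene symbol from the 16448 genes of the deposited normalized table, all 10 symbols were found, and all 10 were among the 13039 genes that passed the filter on low counts, of 43430 genes counted. RNA came from sorted double-positive (CD4+CD8+) thymocytes, the most numerous stage of T cell development in the thymus. The KO group comprised 3 libraries from C57BL/6 mice of genotype Mettl14 fl/fl with CD4-Cre. The WT group comprised 3 libraries from littermate controls on C57BL/6, whose alleles at Mettl14 and Cre are given only as WT. CD4-Cre uses Cd4 regulatory sequence to express Cre recombinase in developing T cells, so the deletion is limited to cells in which that transgene has been active. The sources used here give neither ages nor the floxed exons. The labels do not tie libraries to separate animals, so p-values measure the spread between libraries, part of which may be technical.

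Double-stranded RNA in the cytoplasm is a sign of viral replication, and cells also make such RNA from their own transcripts. Ddx58 (the RIG-I protein) and Ifih1 (MDA5) are helicases that bind it and signal through the adaptor Mavs to induce type I interferon, while Dhx58 (LGP2) is a related helicase that lacks the signalling domains and modulates them. The synthetases Oas1a, Oas2 and Oas3 make oligoadenylates, second messengers of the antiviral response. Eif2ak2 (PKR) phosphorylates the translation factor eIF2 alpha, and Adar (ADAR1) converts adenosine to inosine in double-stranded RNA, which keeps a cell's own RNA from being sensed. Genes of this group are themselves induced by interferon. Mettl14, the deleted gene, belongs with Mettl3 to the methyltransferase complex that deposits N6-methyladenosine in RNA.

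Interferon acts on these genes through a promoter element, so its core, to which interferon regulatory factors bind, was searched as GAAA, then any 2 bases (NN), then GAAA again, on both strands of the RefSeq promoters (GRCm38.p6, from 250 bases before to 50 bases after the annotated start). Of the 10 genes, 8 had a promoter in the table. Oas2 and Dhx58 did not. The motif was found in 5 of these 8 genes, in Oas1a, Oas3, Ifih1, Ddx58 and Eif2ak2. Over the whole table it was found in 3.44% of 32851 promoters and in 3.99% of 27025 genes. The windows around the matches in these 5 genes are shown 5′ to 3′ on the strand of the gene. Oasl1 and Oasl2 had no exact match and are not shown. Capitals mark the motif, or its reverse complement in Ddx58. In Oas1a the capitals hold 2 overlapping copies. For Adar, which had no exact match in any of its 3 promoters, the capitals mark 2 overlapping matches with 1 mismatch each in the promoter that starts farthest downstream.
Oas1a (chr5:120907515-120907560, minus strand): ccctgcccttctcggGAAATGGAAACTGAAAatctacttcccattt
Oas3 (chr5:120777710-120777749, minus strand): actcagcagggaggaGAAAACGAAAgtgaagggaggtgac
Ifih1 (chr2:62646206-62646238, minus strand): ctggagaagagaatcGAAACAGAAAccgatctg
Ddx58 (chr4:40239799-40239838, minus strand): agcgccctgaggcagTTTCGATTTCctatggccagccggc
Eif2ak2 (chr17:78882530-78882569, minus strand): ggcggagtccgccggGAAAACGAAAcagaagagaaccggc
Adar (chr3:89730730-89730767, plus strand): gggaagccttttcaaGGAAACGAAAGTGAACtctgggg

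The matches lay from 20 to 5 bases before the start in Oas1a and from 75 to 66 bases before it in Oas3. They lay after the start in Ifih1 (bases 33 to 42), Ddx58 (bases 3 to 12), Eif2ak2 (bases 19 to 28) and the downstream Adar promoter (bases 28 to 43). With 1 mismatch allowed, the motif was in all 8 genes with a promoter in the table, but also in 38.9% of all genes. In the bases before the start alone, 2 of the 8 genes had an exact match, against 3.46% of all genes. A match is a description of the letters, not evidence that a factor binds there. Among the other interferon-stimulated genes listed for comparison, 7 of 18 had an exact match (38.9%). The whole promoter of Oas1a, which had the largest fold change of the 10 genes, places its matches in context, with the motif copies in capitals.
Oas1a promoter (chr5:120907476-120907775, minus strand): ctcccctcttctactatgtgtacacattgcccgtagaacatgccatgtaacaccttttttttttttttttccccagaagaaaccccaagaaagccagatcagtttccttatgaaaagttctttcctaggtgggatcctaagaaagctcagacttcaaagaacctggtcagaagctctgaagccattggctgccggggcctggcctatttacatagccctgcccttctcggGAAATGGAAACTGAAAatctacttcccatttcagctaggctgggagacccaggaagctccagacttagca

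Each library held between 29500254 and 33377056 counts in genes. The first principal component held 37.9% of the variance. On it, KO replicates 1 to 3 were at -32.2, -8.52 and -17.1, and WT replicates 1 to 3 at 38.9, 16.5 and 2.36. The groups did not overlap there, and WT replicate 1 stood farthest out. The targeted gene Mettl14 had 42.2, 40.3 and 36.4 CPM in KO replicates 1 to 3 and 52.1, 58.8 and 55.8 CPM in WT replicates 1 to 3. CPM is the count relative to library size, with sizes scaled by TMM. Every KO value was below every WT value, and the log2 fold change of -0.49 (SE 0.086) did not pass the threshold of 0.05 in edgeR (adjusted p = 0.289) but did in DESeq2 (adjusted p = 0.0043). Markers that define double-positive thymocytes were abundant in every library, with Rag1 at 4843 to 5308 CPM in KO and 4589 to 5067 CPM in WT, and 0 of the 12 such markers tested passed in edgeR, with 0 at an unadjusted p under 0.05.

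The mean of each of the 10 genes was higher in KO than in WT, by 1.13-fold for Eif2ak2 up to 3.43-fold for Oas1a. Over all genes tested, 48.9% had a positive log2 fold change. In edgeR's quasi-likelihood test 0 of the 10 passed after adjustment over all genes, where 0.00767% of genes passed in this direction and 0.0383% in either. Limma-voom also called 0 of the 10 (0.00767% of genes higher in KO). DESeq2 called 2 of the 10 (Oas2 and Oas3, against 0.161% of genes called higher in KO), and the authors' deposited table lists 4 (Oas1a, Oas2, Oas3 and Ifih1, against 0.245%). At an unadjusted p under 0.05, edgeR had 8 of the 10 higher in KO and 0 lower, where 3.41% of all genes tested were higher and 3.31% lower at that level. With 1 library left out, that count was 3 without KO replicate 1 (2.04% of all genes tested in that fit), 3 without KO replicate 2 (2.82%) and 3 without WT replicate 3 (6.13%), with Oas1a, Oas2 and Oas3 left each time. It was 10 without KO replicate 3 (2.76% of genes), 5 without WT replicate 1 (3.57%) and 7 without WT replicate 2 (1.85%). The median log2 fold change of the 10 genes was 0.72, beside -0.0040 over all genes tested. In bulk RNA, more cells with a transcript and more transcript per cell cannot be told apart.

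**Figure D1:**
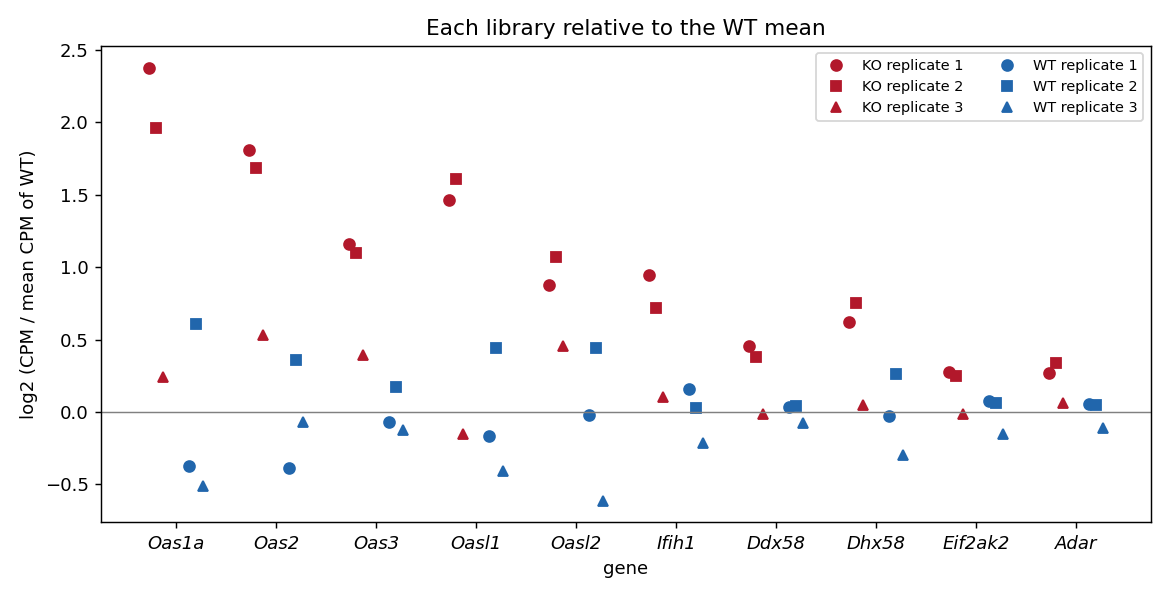
Each point is one library, plotted as the log2 ratio of its CPM to the mean CPM of the WT libraries, for the 10 genes ordered by role; red is KO, blue is WT, and marker shapes give the replicate. KO replicates 1 and 2 lie above all WT libraries for every gene, and KO replicate 3 is the lowest KO library for every gene.

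The oligoadenylate synthetases had the largest differences. Their genes lie on the minus strand of chromosome 5 (mm10), with Oas2 at 120730333 to 120749853, Oas3 at 120753098 to 120777661 and Oas1a at 120896256 to 120907521. Oas1a had 13.2, 9.89 and 3.01 CPM in KO replicates 1 to 3, and 1.96, 3.88 and 1.78 CPM in WT replicates 1 to 3. KO replicates 1 and 2 were high, while KO replicate 3 lay below WT replicate 2, so the groups overlapped. The mean was 8.70 ± 5.20 CPM in KO and 2.54 ± 1.16 CPM in WT (SD, n = 3 each), and the log2 fold change was 1.77 with a 95% interval of 0.53 to 3.01 (edgeR adjusted p = 0.63, DESeq2 adjusted p = 0.34). For Oas1a the authors' deposited table has 1.61 (adjusted p 0.00319).

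Oas2 had 15.4, 14.2 and 6.35 CPM in KO replicates 1 to 3, and 3.37, 5.63 and 4.20 CPM in WT replicates 1 to 3. Here the groups did not overlap, and the lowest KO library was 1.13 times the highest WT library. The log2 fold change was 1.44 with a 95% interval of 0.64 to 2.25 (edgeR adjusted p = 0.488, DESeq2 adjusted p = 0.00273), against 1.36 in the authors' deposited table (adjusted p 0.00231). Oas3, the family member with the most copies of the synthetase domain, had 20.2, 19.3 and 11.8 CPM in KO replicates 1 to 3, and 8.60, 10.1 and 8.27 CPM in WT replicates 1 to 3. Its groups did not overlap either, and its WT libraries lay closer together than those of the other synthetases. The log2 fold change was 0.92 with a 95% interval of 0.43 to 1.42 (edgeR adjusted p = 0.477, DESeq2 adjusted p = 0.00637), against 0.90 in the authors' deposited table (adjusted p 4.56e-04).

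Oas1a counts carry a limit of their own, since its transcript of 1885 bases aligned to that of Oas1g over 1860 bases at 97.5% identity, and reads that align to several places were not assigned. Oas1g had at most 0.232 CPM in any library. Among the other Oas1 copies, 2 had enough counts to test. Oas1b, which carries a truncating mutation in most laboratory mouse strains, had 26.4, 30.6 and 24.5 CPM in KO replicates 1 to 3, and 16.8, 24.1 and 21.3 CPM in WT replicates 1 to 3. Its groups did not overlap, and its log2 fold change of 0.39 (SE 0.15) did not pass (edgeR adjusted p = 0.715) and was 0.26 without WT replicate 1. Oas1c had 11.5, 10.4 and 6.45 CPM in KO and 11.0, 8.45 and 7.82 CPM in WT, with a log2 fold change of 0.058 (SE 0.24). Oas1d, Oas1e, Oas1f, Oas1g and Oas1h were too low to test.

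The OAS-like genes are paralogs of the synthetases. In mouse, Oasl1 is known to restrain translation of Irf7, and Oasl2 retains synthetase activity. Both lie on the plus strand of chromosome 5, Oasl2 at 114896936 to 114912234 and Oasl1 at 114923240 to 114937915. Oasl1 had 8.26, 9.15 and 2.70 CPM in KO replicates 1 to 3, and 2.66, 4.06 and 2.25 CPM in WT replicates 1 to 3. KO replicate 3 fell within the WT range, and the log2 fold change was 1.16 with a 95% interval of 0.12 to 2.19 (edgeR adjusted p = 0.715, DESeq2 adjusted p = 0.241). Oasl2, the lowest of the 10 genes, had 2.79, 3.18 and 2.08 CPM in KO replicates 1 to 3, and 1.49, 2.06 and 0.991 CPM in WT replicates 1 to 3. The groups did not overlap, though KO replicate 3 exceeded WT replicate 2 by only 1.01-fold, which is within counting error at 67 and 68 counts. The log2 fold change was 0.82 with a 95% interval of 0.087 to 1.55 (edgeR adjusted p = 0.715).

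Among the helicases that signal through Mavs, Ifih1 differed most. Ifih1 (chromosome 2, 62595798 to 62646255) had 25.04, 21.4 and 14.0 CPM in KO replicates 1 to 3, and 14.5, 13.3 and 11.2 CPM in WT replicates 1 to 3. KO replicate 3 lay just below WT replicate 1. The log2 fold change was 0.63 with a 95% interval of 0.13 to 1.13 (edgeR adjusted p = 0.695, DESeq2 adjusted p = 0.198), against 0.61 in the authors' deposited table (adjusted p 0.025). Ddx58 (chromosome 4, 40203773 to 40239828) had 86.9, 82.6 and 62.7 CPM in KO replicates 1 to 3, and 64.9, 65.3 and 60.1 CPM in WT replicates 1 to 3. Its WT libraries were within 1.09-fold of each other, KO replicate 3 was inside their range, and the log2 fold change was 0.29 with a 95% interval of 0.0032 to 0.57 (edgeR adjusted p = 0.733). Dhx58 (chromosome 11, 100694884 to 100704271) had 15.8, 17.3 and 10.6 CPM in KO replicates 1 to 3, and 10.1, 12.4 and 8.40 CPM in WT replicates 1 to 3, with a log2 fold change of 0.50 and a 95% interval of -0.0051 to 1.01 (edgeR adjusted p = 0.733).

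The kinase and the editing enzyme were the most abundant of the 10 genes with Ddx58 and differed least. Eif2ak2 (chromosome 17, 78852564 to 78882573) had 41.2, 40.5 and 33.7 CPM in KO replicates 1 to 3, and 36.0, 35.6 and 30.6 CPM in WT replicates 1 to 3. Its groups overlapped, and the log2 fold change of 0.17 had a 95% interval of -0.076 to 0.43 (edgeR adjusted p = 0.781), a value that was 0.27 without KO replicate 3 and 0.11 without WT replicate 3. Adar (chromosome 3, 89715022 to 89753446) had 165, 173 and 143 CPM in KO replicates 1 to 3, and 143, 142 and 127 CPM in WT replicates 1 to 3. The groups did not overlap, but KO replicate 3 exceeded the highest WT library by only 1.004-fold, with 4627 counts against 4879 before scaling. The log2 fold change was 0.23 with a 95% interval of 0.019 to 0.43 (edgeR adjusted p = 0.725). Adar is transcribed from several starts, and an interferon-inducible longer protein comes from 1 of them. The counts add all transcripts of the gene, so that isoform was not measured apart. Adar shares 1365 of its 8118 exonic bases with Chrnb2 on the opposite strand, which had at most 5.49 CPM in any library.

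**Figure D2:**
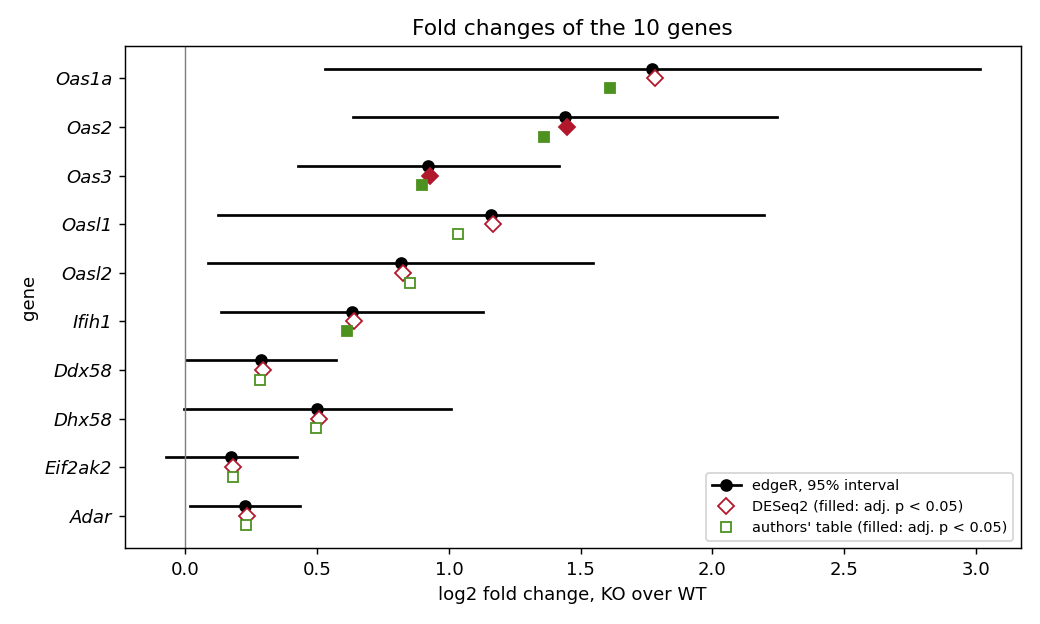
Log2 fold changes of the 10 genes, KO over WT, from edgeR (black, with 95% intervals), DESeq2 (diamonds) and the authors' deposited table (squares); filled symbols mark an adjusted p under 0.05. The values run from 0.17 for Eif2ak2 to 1.77 for Oas1a in edgeR. The 3 fits give similar sizes, but they use the same 6 libraries and are not separate support.

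The 10 genes differed widely in level. Per kilobase of exons, Adar had the highest level in KO (19.8 ± 1.89 CPM per kilobase) and in WT (16.9 ± 1.09, SD, n = 3 each), followed by Ddx58 at 11.0 ± 1.83 in KO and 8.999 ± 0.413 in WT and Eif2ak2 at 7.52 ± 0.814 in KO and 6.66 ± 0.584 in WT. In WT, Dhx58 followed at 3.15 ± 0.61 CPM per kilobase. The ranges of Ifih1, Oas1a, Oas3, Oasl1 and Oas2 then overlapped from each gene to the next in WT, at means of 0.988 to 1.59 CPM per kilobase, and Oasl2 was lowest at 0.421 ± 0.088 in KO and 0.238 ± 0.0838 in WT. In KO, Oas1a was at rank 4 of 10 with 4.61 ± 2.76 CPM per kilobase, against rank 6 with 1.35 ± 0.617 in WT. Its KO range of 1.59 to 7.001 overlapped those of both neighbours in the order, Eif2ak2 and Dhx58. The 4 genes with the highest WT level had log2 fold changes of 0.17 to 0.50, and the other 6 had 0.63 to 1.77. Among these 6 the fold change did not follow the level, since Oasl2, the lowest, had 0.82 and Oas1a had 1.77. The WT level is also the denominator of the fold change, so level and fold change are not independent.

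**Figure D3:**
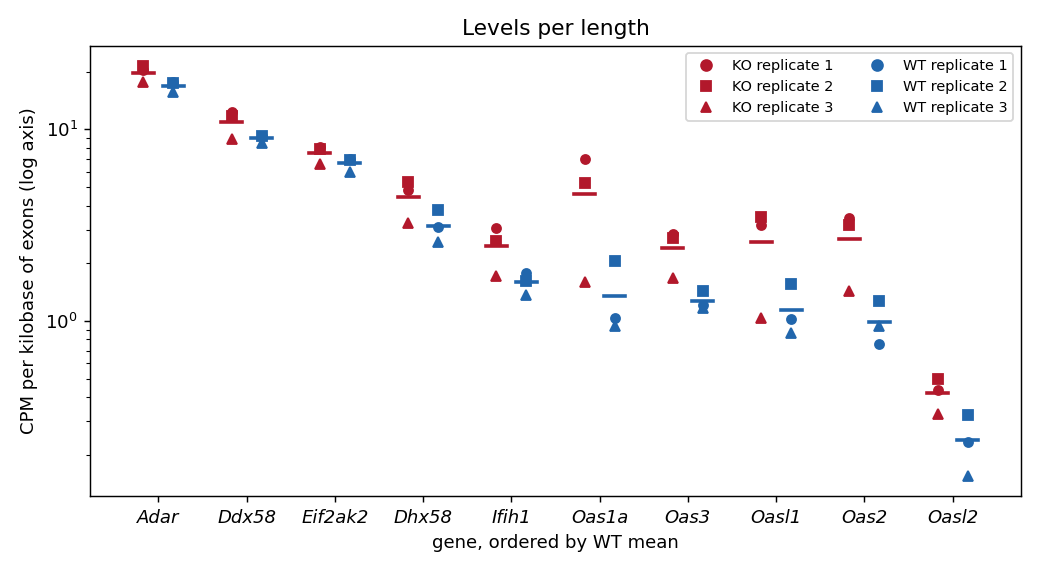
CPM per kilobase of exons on a log axis for each library, with horizontal bars at the group means, genes ordered by their WT mean. The order in WT runs from Adar at 16.9 to Oasl2 at 0.238, and Oas1a in KO reaches 4.61.

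The libraries fell in nearly the same order for all 10 genes, a pattern seen after the values were known. KO replicates 1 and 2 were both above all WT libraries for 10 of the 10 genes, where 11.5% of all genes tested had this. KO replicate 3 was the lowest KO library for 10 of the 10, where 33.0% of genes had this. WT replicate 3 was the lowest WT library for 9 of the 10, all but Oas2, where 35.6% of genes had this. All 3 KO libraries lay above all WT libraries for 4 of the 10 (Oas2, Oas3, Oasl2 and Adar), where 6.59% of all genes tested had this. The spread within KO was therefore large: the highest KO library was 4.39 times the lowest for Oas1a and 3.39 times for Oasl1, against 1.21 times for Adar and 1.22 times for Eif2ak2. Relative to the WT mean, the mean of KO replicates 1 and 2 was 4.55-fold for Oas1a, 3.36-fold for Oas2 and 2.91-fold for Oasl1, whereas KO replicate 3 was 1.18-fold, 1.44-fold and 0.901-fold for these genes. Averaged over the 10 genes, centred log2 CPM was 0.67, 0.63 and -0.18 in KO replicates 1 to 3 and -0.42, -0.10 and -0.60 in WT replicates 1 to 3, so KO replicate 3 lay below WT replicate 2. Set against the WT library of the same number, KO replicate 3 was higher for 10 of the 10 genes, by 1.04-fold for Ddx58 up to 2.10-fold for Oasl2. Of all genes tested, 49.8% were higher in that comparison of 1 library with another. WT replicate 3 was already seen to be the lowest WT library for 9 of the 10, so this comparison gives no separate support. Relative to the WT mean, KO replicate 3 ran from 0.901-fold for Oasl1 to 1.44-fold for Oas2, with Ddx58 and Eif2ak2 each at 0.989-fold. Whether the numbers mark libraries handled together is not stated in the labels. Within replicates 1 and 2 alone (edgeR) the median log2 fold change of the 10 genes was 0.75, with 0 past the threshold. There 9 of the 10 had an unadjusted p under 0.05, where 4.32% of genes were higher in that fit. It leaves out KO replicate 3 and WT replicate 3, already seen to be low for these genes, so it gives no separate support.

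Beside the synthetases, their relatives and regulators gave no call. Pde12, which degrades oligoadenylates, had a log2 fold change of 0.19 (SE 0.095). Of the 10 genes listed as other OAS genes and their regulators, 5 were tested. Of these, 0 passed in edgeR (1 at an unadjusted p under 0.05, Oas1b) and 0 in DESeq2, and their median log2 fold change was 0.058. That median was 0.20 without KO replicate 3, 0.17 without WT replicate 1 and 0.18 within replicates 1 and 2 alone. With any other single library left out it was 0.050 to 0.073.

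Few genes of RIG-I-like receptor signalling passed a test. Of 17 tested, 0 passed in edgeR (2 at an unadjusted p under 0.05) and 1 in DESeq2, with 2 in the authors' deposited table, and the median log2 fold change was 0.024. Mavs, the mitochondrial adaptor of both helicases, had a log2 fold change of 0.012 (SE 0.092), the kinase Tbk1 of -0.023 (SE 0.064) and Irf3 of 0.0063 (SE 0.067). Trim25, a ubiquitin ligase of the RIG-I pathway, was the exception: it had 256, 228 and 260 CPM in KO replicates 1 to 3, and 151, 172 and 187 CPM in WT replicates 1 to 3. KO replicate 3 was the highest KO library for Trim25, unlike for the 10 genes. It differed by a log2 fold change of 0.55 with an SE of 0.094 (edgeR adjusted p = 0.289, DESeq2 adjusted p = 6.89e-04), against 0.56 in the authors' deposited table (adjusted p 6.27e-05). Irf7, the interferon-inducible factor that amplifies type I interferon, had 34.1, 38.8 and 23.0 CPM in KO replicates 1 to 3, and 20.5, 23.3 and 18.0 CPM in WT replicates 1 to 3. KO replicate 3 lay just below WT replicate 2, the log2 fold change was 0.63 with an SE of 0.19 (edgeR adjusted p = 0.63, DESeq2 adjusted p = 0.0988), with 0.00522 as adjusted p in the authors' deposited table.

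Genes downstream of Eif2ak2 gave no call. Of 12 genes of the integrated stress response, which eIF2 alpha phosphorylation triggers through Atf4, 8 were tested, 0 passed in edgeR (1 at an unadjusted p under 0.05, Sesn2) and 0 in DESeq2, and the median log2 fold change was -0.026, or 0.056 without KO replicate 2 and 0.033 without WT replicate 1. Atf4 itself was at 142 ± 7.19 CPM in KO and 158 ± 34.8 CPM in WT (SD, n = 3 each), and Ddit3, which encodes the factor CHOP, had a log2 fold change of -0.034 (SE 0.10). Sesn2 had 15.2, 10.9 and 14.0 CPM in KO replicates 1 to 3, and 6.50, 7.45 and 10.8 CPM in WT replicates 1 to 3, a log2 fold change of 0.70 with an SE of 0.22 (edgeR adjusted p = 0.661). Sesn2 is also a p53 target. Partners and regulators of Eif2ak2 (9 tested) had 0 calls in edgeR, 0 at an unadjusted p under 0.05 and 0 in DESeq2, and a median log2 fold change of 0.041. The lowest value among them belonged to Ppp1r15a, which directs eIF2 alpha dephosphorylation. It was at 22.7 to 28.5 CPM in KO, and at 141 CPM in WT replicate 1 against 17.2 and 22.5 CPM in the other WT libraries, so its log2 fold change of -1.28 (SE 0.72) was 0.32 without WT replicate 1.

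Other proteins that bind or process double-stranded RNA, such as Dhx9, Dicer1 and Drosha, had 0 calls among 19 tested in edgeR and in DESeq2, 2 at an unadjusted p under 0.05 in edgeR (Ddx60 higher and Ddx1 lower in KO), and a median log2 fold change of 0.0018. Dhx9, a nuclear helicase that resolves RNA duplexes, was at 599 ± 23.1 CPM in KO and 627 ± 0.124 CPM in WT (SD, n = 3 each). Ddx60, an interferon-inducible helicase, had the largest value of this list, at 13.8, 22.1 and 9.24 CPM in KO replicates 1 to 3, and 8.95, 10.7 and 7.31 CPM in WT replicates 1 to 3 (log2 fold change 0.74 with an SE of 0.31, edgeR adjusted p = 0.733). Without KO replicate 2 the log2 fold change of Ddx60 was 0.36. Zbp1, a sensor of Z-form nucleic acid, had a log2 fold change of 0.074 (SE 0.22). Adarb1, the second editing enzyme, was at 1.46 to 2.72 CPM in KO and 1.35 to 2.19 CPM in WT.

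The type I interferon genes looked up were not detected. Ifnb1, Ifna1, Ifna2, Ifna4, Ifnk and Ifne had 0 counts in each of the 6 libraries. For each gene this allows up to 0.093 to 0.102 CPM per KO library and 0.0878 to 0.102 CPM per WT library (3 counts, counting error only). Other interferon alpha genes were not looked up. Reads that align to several places were not assigned, so reads shared between interferon genes would be missed. Ifng had at most 0.169 CPM in any library. The receptor genes Ifnar1 and Ifnar2 were expressed in both groups, with log2 fold changes of -0.077 (SE 0.10) and 0.20 (SE 0.12). Of 12 genes of interferon signal transduction, 10 had a positive log2 fold change, with a median of 0.11, and 0 passed in edgeR (3 at an unadjusted p under 0.05) and 1 in DESeq2. That gene was Usp18, which encodes a negative regulator of the interferon receptor. Usp18 had 36.2, 39.8 and 18.1 CPM in KO replicates 1 to 3, and 11.6, 18.2 and 14.1 CPM in WT replicates 1 to 3, a log2 fold change of 1.10 with an SE of 0.29 (edgeR adjusted p = 0.578, DESeq2 adjusted p = 0.0107). Irf9, a subunit of the factor that type I interferon activates, did not overlap between groups, and its log2 fold change of 0.58 (SE 0.16) missed the threshold (edgeR adjusted p = 0.592). For Stat2, another subunit, it was 0.12 (SE 0.067).

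The 10 genes were set beside 23 other interferon-stimulated genes, of which 22 were tested. All 22 had a positive log2 fold change, with a median of 0.55, and 0 passed in edgeR (10 at an unadjusted p under 0.05), 3 in DESeq2 (Isg15, Rtp4 and Xaf1) and 7 in the authors' deposited table (these and Cmpk2, Bst2, Lgals3bp and Samd9l). Samd9l, which encodes an antiviral restriction factor, had 188, 200.2 and 138 CPM in KO replicates 1 to 3, and 112, 131 and 123 CPM in WT replicates 1 to 3. Groups did not overlap for 8 of the 22, all higher in KO, beside the 6.59% of all genes. The list mean by library was 0.30, 0.64 and -0.11 in KO replicates 1 to 3 and -0.38, -0.022 and -0.43 in WT replicates 1 to 3, so here too KO replicate 3 lay below WT replicate 2. Of the 7, Xaf1 and Bst2 had KO replicate 3 as their highest library, at 28.1 CPM for Xaf1 and 29.4 CPM for Bst2.

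**Figure D4:**
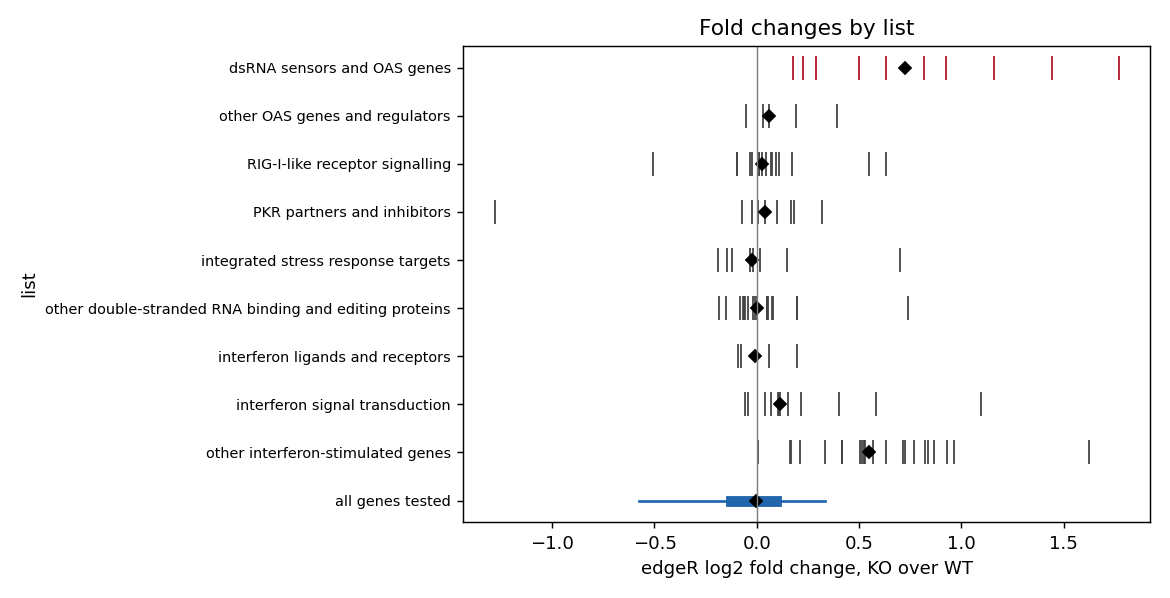
EdgeR log2 fold changes (KO over WT) of every tested gene of each pathway list as ticks, with diamonds at the medians; for all 13039 genes tested the thick bar spans the 25th to 75th percentile and the thin line the 5th to 95th. The medians of the 10 genes (0.72) and of the other interferon-stimulated genes (0.55) lie to the right of those of the other lists, which run from -0.026 to 0.11.

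The genes whose profile over the 6 libraries was most like the mean profile of the 10 were found by the root mean square difference of centred log2 CPM, over 9598 other genes with a mean of at least 5 CPM. The 5 nearest were Irf7 (0.12), Isg15 (0.15), Rtp4 (0.17), Cmpk2 (0.17) and Lgals3bp (0.17, all on the log2 scale). Isg15, a ubiquitin-like modifier, had 16.2, 16.3 and 9.82 CPM in KO replicates 1 to 3, and 6.00, 8.93 and 6.76 CPM in WT replicates 1 to 3. Rtp4 had 24.8, 28.2 and 17.2 CPM in KO replicates 1 to 3, and 10.7, 14.0 and 12.1 CPM in WT replicates 1 to 3. In both genes all KO libraries lay above all WT libraries, with KO replicate 3 the lowest of its group. For Irf7, the nearest, the groups overlapped, with KO replicate 3 at 23.0 CPM and WT replicate 2 at 23.3 CPM. Because these genes were picked for a profile like that of the 10, a similar order of libraries follows from the choice.

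Markers of other cells that a sort of thymocytes could hold were set beside the 10 genes. Myeloid and dendritic cell markers (7 of 12 tested, 6 with a positive log2 fold change) had a median log2 fold change of 1.34, which was 0.61 without KO replicate 2, 0.38 without KO replicate 3 and 0.47 within replicates 1 and 2 alone. This list had means of -0.63, 0.87 and 0.73 in KO replicates 1 to 3 and -0.75, -0.031 and -0.18 in WT replicates 1 to 3 on the centred log2 scale. H2-Ab1, a class II gene of antigen-presenting cells, was at 6.63, 6.71 and 8.12 CPM in KO and 4.62, 5.51 and 5.30 CPM in WT, and Cd74 at 2.42, 18.7 and 10.5 CPM in KO and 2.69, 5.15 and 3.52 CPM in WT. B cell markers (6 of 9 tested) had -0.43, 0.82 and 0.21 in KO and -0.77, 0.37 and -0.21 in WT. On this scale KO replicate 1 was the lowest KO library for both lists. By summed CPM it was the highest KO library for the B cell list, at 850 against 815 and 806 CPM. Summed CPM was 91.0 to 123 in KO and 87.7 to 93.8 in WT for the myeloid list, where Xcr1 had 0 counts in every library, and 806 to 850 in KO and 799.5 to 888 in WT for the B cell list, most of it from Ighm. None of these marker lists had a call in edgeR or DESeq2, and the authors' deposited table calls 1 plasmacytoid marker, Bst2, which is also among the interferon-stimulated genes above. Higher in KO at an unadjusted p under 0.05 (edgeR) were 2 of 7 myeloid and 1 of 5 plasmacytoid markers tested. So were 2 of 6 B cell, 2 of 3 NK and 1 of 4 stromal markers, and 0 were lower in these lists. Over all genes tested, 3.41% were higher and 3.31% lower at that level. The plasmacytoid dendritic cell list summed to 290.4 to 425 CPM in KO and 260.3 to 355 CPM in WT, most of it from Ly6d, and its defining marker Siglech was at 0.0332 to 0.434 CPM in KO and 0.176 to 0.239 CPM in WT, with Cd300c at 0 throughout. The thymic stromal list summed to 171 to 184 CPM in KO and 172 to 208 CPM in WT, with Krt5, Foxn1 and Pdgfra at 0 counts. NK and innate lymphocyte markers summed to 39.9 to 48.3 CPM in KO and 26.7 to 40.8 CPM in WT, most of it from Gzma. Of 8 such markers 3 were tested, all with a positive log2 fold change (median 0.85, or 0.35 with a stricter filter on low counts). Their list means were -0.12, 0.52 and 0.63 in KO replicates 1 to 3 and -0.45, -0.23 and -0.34 in WT replicates 1 to 3. By these means every KO library lay above every WT library, whereas by summed CPM the groups overlapped. The part of such cells in the differences was not tested in any library.

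**Figure D5:**
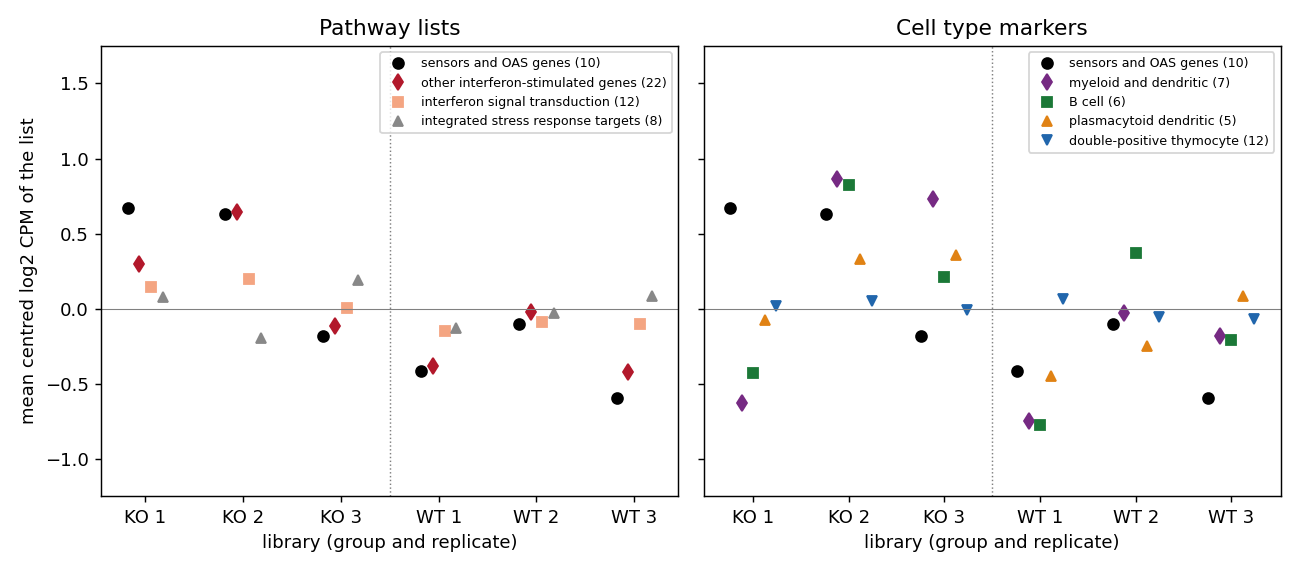
Mean centred log2 CPM of each list in each library, with the number of tested genes in brackets; the left panel shows pathway lists and the right panel cell type markers. The 10 genes (black) are at 0.67, 0.63 and -0.18 in KO replicates 1 to 3, and the myeloid list at -0.63, 0.87 and 0.73.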

How the data were processed

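Illumina TruSeq libraries were made from 3 KO and 3 WT samples of sorted thymocytes, per the labels' protocols. The submitters' processing notes name Trimmomatic 0.33, STAR 2.5.2, HTSeq, DESeq2 and build mm10. How reads were counted, with or without strand, and which annotation was used is not given in the sources used here. Reads where genes on opposite strands overlap may therefore be unassigned or counted for the wrong gene. Reads marked as ambiguous, which were assigned to no gene, were 0.653% to 0.701% per library. Raw gene counts were deposited by the authors, with a normalized signal, in which a size factor of the library divides each count. The authors' deposited table also gives log2 fold changes, a Wald score and p-values from their own DESeq2 fit, which is named as paired without saying what was paired.

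Raw counts were tested with edgeR 4.0.16 in R 4.3.3 (TMM, filterByExpr, the quasi-likelihood test with group as the single term, both sides, p adjusted by Benjamini-Hochberg over all genes tested, threshold 0.05). The SE was taken as the ratio of log2 fold change to the root of F, and 95% intervals use the test's degrees of freedom. DESeq2 1.42.0 and limma-voom (limma 3.58.1) were alternatives, with other scalings, filters, a replicate block and each library left out. Rows naming no gene entered neither library sizes nor tests; reads without a feature were 12.3% to 15.2% and reads with several alignments 22.6% to 23.9% per library. Counts of same-group libraries differed beyond sampling noise (chi-square divided by its degrees of freedom at least 16.1). Levels per length used exon unions from GENCODE M21 (GRCm38), because the lengths in the deposited table were up to 2.73 times the exon union for these genes. Symbols came from the deposited table and the name table, which matched 42462 of 43430 identifiers. Centred log2 CPM used a prior count of 2. BLAST matched transcripts between genes. The tests were checked on simulated data.

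Named genes were the 10 genes, Mettl14, members of each pathway list past the threshold in edgeR, DESeq2 or the authors' deposited table or otherwise the 3 with the lowest p, and the 5 genes with the nearest profile; further list members are named for their role, chosen after their values were seen. The genes and lists were chosen with earlier results of these data known. A few genes picked by this rule are not reported here.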

Additional observations from a re-analysis of the deposited data

How the results depend on the processing

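Over 16 alternatives, each of the 10 genes kept a positive log2 fold change in every one (160 of 160 values), and 6 of these values passed the threshold, all in DESeq2 fits. The number of the 10 called was 2 with DESeq2. It was 4 with DESeq2 and a replicate block of 2 levels (replicates 1 and 2 against replicate 3). That alternative was added after seeing the data. These 4 (Oas1a, Oas2, Oas3 and Ifih1) are those called in the authors' deposited table. In that blocked fit the log2 fold change was 1.6095 for Oas1a, 1.3602 for Oas2 and -0.9888 for Ppp1r15a. The deposited values are nearly the same, at 1.6095, 1.3603 and -0.9887, while DESeq2 with no block gave 1.78, 1.45 and -1.27. Whether the authors used this block is not stated in the sources used here. The number of the 10 called was 0 in the other alternatives, each library left out included. The median of the 10 genes was 0.57 to 0.91 with 1 library left out and 0.75 within replicates 1 and 2. The count of all genes called was 105 with DESeq2, 115 with DESeq2 and that block, 30 with no filter on low counts and 4 to 23 with 1 library left out, against 5. The cause of these differences was not tested. Ppp1r15a turned to 0.32 without WT replicate 1, with a range of -1.71 to 0.32 over each library left out. Deviations of same-numbered libraries from their group means correlated across genes at -0.15, 0.080 and 0.19 for replicates 1, 2 and 3, so the numbers are not known to pair them, though the value for replicate 3 was the highest of the 9 pairs of a KO with a WT library. With the replicate number as a block edgeR called 5 genes, 0 of the 10 among them, with a median of 0.73 for the 10; with the block of 2 levels it also called 5, with a median of 0.73 and 10 of the 10 at an unadjusted p under 0.05 (3.85% of all genes), against 9 (3.08%) with the block of replicate numbers and 8 with none. Exact promoter matches were in 2 of 8 genes in the bases before the start, against 5 in the whole window, and matches with up to 1 mismatch were in 8 of 8, where 38.9% of all genes had one. At 29 to 94 counts per library, Oasl2 is the gene most limited by depth.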
